A study of Mus musculus with 8 samples.

Results

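Integrin subunits and the core proteins of focal adhesions were followed in 8 mouse mammary tumors, 4 grown in a preirradiated bed and 4 in a nonirradiated bed. The members were listed by name: 26 integrin subunits and 14 focal adhesion genes, 40 in all. Each was read from the probe set that carried its symbol alone, and where a symbol had several such probe sets, from the one with the highest mean over the 8 tumors. On this rule 39 of the 40 were measured among 19937 named genes, and Ptk2 was not analysed here. All 39 passed the study's own expression limit, a mean of at least 4.0 log2 units.

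The tumors were grown from 4T1 cells, a mammary carcinoma line of BALB/c mice that invades and metastasizes. Cells were placed orthotopically in the fourth mammary gland of BALB/c mice, and all tumors had grown for 18 days. In the preirradiated group that gland had received 1 X-ray dose of 20 Gy before the cells, and in the nonirradiated group it had received none. The implanted cells were themselves not irradiated. The labels used here give no mouse age and leave unsaid whether any mouse bore more than 1 of the tumors. The p-values set differences against the spread between these samples and take the tumors as independent, which is not known. RNA came from whole tumor tissue on 1 Affymetrix Mouse Gene 1.0 ST array per tumor. Values are log2 signals after robust multi-array averaging (RMA), which makes the arrays alike in distribution, and 1.0 log2 unit is a factor of 2.0. Krt8 and Krt18, keratins of simple epithelium, had group means between 11.90 and 12.60, and Epcam, an epithelial adhesion molecule, 9.34 and 9.55. Other genes of the epithelial marker list were lower, with Krt19 at 7.15 in nonirradiated and 7.49 in preirradiated tumors and Trp63 at 6.19 and 6.24. Epithelial RNA was thus present, and whether it came from 4T1 cells or from the host gland was not tested. Krt5, a keratin of basal epithelium, was at 5.99 in nonirradiated and 5.88 in preirradiated tumors, but at 7.37 in nonirradiated tumor 4 and 6.93 in preirradiated tumor 3. Krt14, also a basal keratin, was at 6.87 in nonirradiated and 7.73 in preirradiated tumors. Means are given ± SD over 4 tumors, and differences are preirradiated minus nonirradiated with their standard error (SE).

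Integrins are heterodimers of an alpha and a beta chain that hold cells to the extracellular matrix or to other cells. The alpha chain largely sets the ligand: some dimers bind collagen, some laminin, some the Arg-Gly-Asp (RGD) motif of fibronectin and vitronectin, and those of leukocytes bind counter-receptors on other cells. Inside the cell, talins and kindlins switch the beta chain to its active form, the complex of integrin-linked kinase, PINCH and parvin joins it to actin, and vinculin, zyxin, paxillin and p130Cas build the mature focal adhesion and its signals. In mammary carcinoma both the tumor cells and the stromal and immune cells carry integrins, each cell type its own set. Cooperation of an alphav integrin with the matrix protein CYR61 in tumors of preirradiated stroma is named in the title of a publication that the series cites.

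The promoters of the members on which the results turn most are printed first. They run from 250 bases before to 50 bases after the annotated start, 5′ to 3′ along the gene, from RefSeq on GRCm38.p6. The table matched 28 of the 40 members, with 34 promoters, since some genes have several starts. Capitals mark matches on either strand to 4 motifs: the GC box GGGCGG, the AP-1 site TGANTCA, the ETS core GAGGAA and the TATA box TATAAA. In the promoters shown no matches overlapped. The Itga2 window lies at chr13:114932051-114932350 (minus strand) and the Itga1 window at chr13:115101915-115102214 (minus strand). They are shown as the promoters of neighbouring genes for collagen receptor chains whose differences were unlike.
Itga2: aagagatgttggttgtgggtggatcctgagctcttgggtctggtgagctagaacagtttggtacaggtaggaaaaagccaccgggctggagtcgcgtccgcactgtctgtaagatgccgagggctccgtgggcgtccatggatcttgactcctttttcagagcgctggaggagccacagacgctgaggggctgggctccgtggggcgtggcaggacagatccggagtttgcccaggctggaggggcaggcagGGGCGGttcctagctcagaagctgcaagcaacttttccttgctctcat
Itga1: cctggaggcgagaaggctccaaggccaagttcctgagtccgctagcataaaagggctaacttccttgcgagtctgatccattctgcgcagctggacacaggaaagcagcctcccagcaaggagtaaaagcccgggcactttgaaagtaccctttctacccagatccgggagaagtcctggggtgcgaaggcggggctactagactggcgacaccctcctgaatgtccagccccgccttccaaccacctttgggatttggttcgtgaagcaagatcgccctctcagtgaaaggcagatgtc
The fibronectin receptor is made of the products of Itga5 and Itgb1, whose windows lie at chr15:103366742-103367041 (minus strand) and chr8:128685404-128685703 (plus strand). Both genes were higher in each preirradiated tumor than in any nonirradiated one.
Itga5: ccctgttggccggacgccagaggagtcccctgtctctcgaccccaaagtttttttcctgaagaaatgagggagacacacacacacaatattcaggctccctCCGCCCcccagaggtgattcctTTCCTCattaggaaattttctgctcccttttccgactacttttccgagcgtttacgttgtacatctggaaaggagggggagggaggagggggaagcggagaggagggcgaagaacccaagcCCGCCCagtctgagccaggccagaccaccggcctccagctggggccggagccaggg
Itgb1: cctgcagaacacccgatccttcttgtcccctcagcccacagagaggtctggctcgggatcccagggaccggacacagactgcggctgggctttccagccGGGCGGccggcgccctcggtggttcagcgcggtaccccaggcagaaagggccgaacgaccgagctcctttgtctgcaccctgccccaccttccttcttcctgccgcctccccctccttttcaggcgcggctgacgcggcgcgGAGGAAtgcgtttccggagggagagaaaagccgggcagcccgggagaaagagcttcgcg
Itgam, with its window at chr7:128062390-128062689 (plus strand), had the smallest p of all members and was lower. Fermt1, with its window at chr2:132945987-132946286 (minus strand), had the highest difference.
Itgam: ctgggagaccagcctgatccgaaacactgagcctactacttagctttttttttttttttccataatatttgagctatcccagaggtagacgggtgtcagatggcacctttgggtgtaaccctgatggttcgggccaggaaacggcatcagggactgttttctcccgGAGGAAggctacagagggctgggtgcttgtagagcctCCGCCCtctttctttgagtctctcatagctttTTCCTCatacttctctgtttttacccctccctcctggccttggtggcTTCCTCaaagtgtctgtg
Fermt1: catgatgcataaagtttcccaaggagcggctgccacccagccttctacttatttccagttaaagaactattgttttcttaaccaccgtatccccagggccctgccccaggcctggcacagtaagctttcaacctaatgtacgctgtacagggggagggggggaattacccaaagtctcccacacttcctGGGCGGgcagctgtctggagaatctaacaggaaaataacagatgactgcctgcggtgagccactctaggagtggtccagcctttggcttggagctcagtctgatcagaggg
The Itgam window held 3 ETS cores and 1 GC box, the Itga5 window 2 GC boxes and 1 ETS core, and the Itgb1 window 1 of each. Itga2 and Fermt1 had 1 GC box each and Itga1 had no match. A GC box stood in 18 of the 34 member promoters, where 35.7% of all 32851 promoters in the table held one. The ETS core stood in 11 of 34 (28.3% of all promoters), the AP-1 site in 4 of 34 (7.81%) and the TATA box in 1 of 34 (13.6%). These matches describe letters in a window and not sites of binding.

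Over all members, differences were small and ran both ways. By limma, a linear model with a moderated variance, 0 members passed a Benjamini-Hochberg adjusted p of 0.05, as did 0.0% of all 34738 probe sets. An ordinary linear model likewise gave 0 members. At an unadjusted limma p of at most 0.05, 10 of 39 members stood out, with adjusted p between 0.62 and 0.84. Of these 10, 5 were higher in preirradiated tumors, where 2.39% of all named genes were, and 5 were lower, where 3.27% were. The higher ones were Itga2, Itga5, Itgb1, Itgb6 and Fermt1, and the lower ones were Itga9, Itgal, Itgam, Parva and Zyx. Their differences amounted to between 1.08-fold and 1.41-fold. Among genes with a mean of at least 6, 9 of 34 members and 8.35% of 11456 named genes had such a p. After centring of each array on its own median, which moved the median of all probe sets from -0.001 to -0.035, 3 members were higher and 9 lower at that p. That shift applies to every gene. Shares of all named genes were not counted for this setting or for the left-out tumors and the covariate below, so these counts are not read as particular to the members. The filter that the study set adds a change of at least 0.4 to that p, and it was passed by Itga2 and Fermt1, both higher (0.346% of named genes passed as higher and 0.14% as lower). The groups did not overlap for 3 members that were higher (1.7% of named genes) and 3 that were lower (1.95%). Without preirradiated tumors 1 and 3, which were high in skeletal muscle markers, 0 members were higher and 3 lower at that p, and with the muscle marker mean as a covariate 0 were higher and 2 lower. With nonirradiated tumor 1, nonirradiated tumor 2 or preirradiated tumor 1 left out, 0 members passed the filter and 3 were higher at that p, as were 3 without nonirradiated tumor 3. The filter was passed by 1 member with nonirradiated tumor 3 or 4 or preirradiated tumor 2 left out. The median difference of the 39 members was -0.023, beside -0.004 over all named genes. Over all probe sets, log2 signals of any pair of arrays correlated at between 0.991 and 0.996, a measure set mostly by differences between genes. In marker lists preirradiated tumors 1 and 3 stood apart in skeletal muscle and preirradiated tumor 1 in adipocyte genes.

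**Figure D1:**
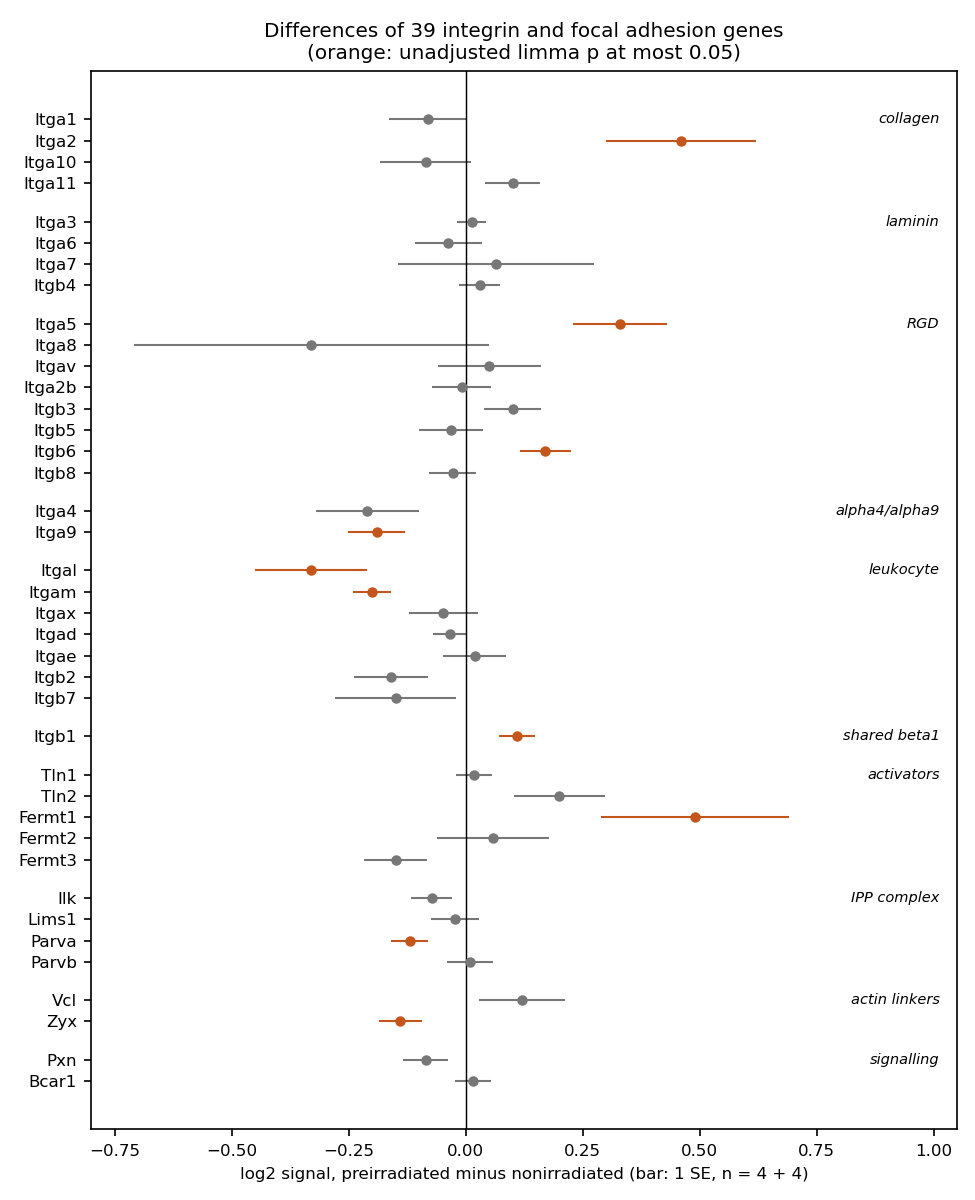
Each point is the log2 difference of a member between 4 preirradiated and 4 nonirradiated tumors, with a bar of 1 SE, in classes named at the right. Orange marks the 10 members with an unadjusted limma p of at most 0.05. Fermt1 (0.49) and Itga2 (0.46) lie farthest to the right, and Itga8 (-0.33) has the widest bar.

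Of the collagen receptor chains, which pair with the beta1 chain, Itga2 was higher in preirradiated tumors and the other 3 differed by between -0.086 and 0.10. Itga2 (probe set 10412267), the alpha2 chain found on epithelium and platelets, read 9.25, 9.27, 9.50 and 9.76 in nonirradiated tumors 1 to 4. It read 10.30, 9.93, 9.71 and 9.68 in preirradiated tumors 1 to 4. Preirradiated tumors 3 and 4 lay just below nonirradiated tumor 4, so the groups overlapped. The means were 9.91 ± 0.29 and 9.45 ± 0.24, a difference of 0.46 (SE 0.16) or 1.38-fold (limma, adjusted p = 0.812). Its unadjusted p missed 0.05 in 5 of 19 alternative settings. Of these, 4 left out nonirradiated tumor 1 (0.39), nonirradiated tumor 2 (0.40) or both preirradiated tumors 1 and 3 (0.36) or had the muscle covariate (0.42).

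Itga1, the alpha1 chain of smooth muscle and other stroma, is the next gene on the same chromosome and differed by -0.081 (SE 0.082). The gap between both genes within an array, Itga2 minus Itga1, was -0.23 to 0.45 in nonirradiated and 0.53 to 1.02 in preirradiated tumors. These ranges did not touch, and the pair was chosen after its values had been seen, so no test is given. Itga10, a chain known from cartilage, differed by -0.086 (SE 0.097). Itga11, a collagen receptor chain of fibroblasts, was 5.60 ± 0.065 against 5.49 ± 0.10, and preirradiated tumor 1, at 5.69, was its highest tumor. The median of the 4 collagen receptor chains was 0.011.

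The fibronectin receptor chains Itga5 and Itgb1 were both higher, each without overlap between the groups. Itga5 (probe set 10433114), the alpha5 chain, read 9.41, 9.36, 9.64 and 9.70 in nonirradiated tumors 1 to 4 and 10.07, 9.80, 9.85 and 9.71 in preirradiated tumors 1 to 4. The lowest preirradiated tumor, at 9.712, stood just above the highest nonirradiated tumor, at 9.698. The difference was 0.33 (SE 0.10) or 1.26-fold (limma, adjusted p = 0.773). Its unadjusted p missed 0.05 without preirradiated tumors 1 and 3, where the difference was 0.23, and with the muscle covariate (0.26). The mean of 6 smooth muscle and pericyte markers was 7.61 to 7.98 in preirradiated and 7.50 to 7.59 in nonirradiated tumors. Of these markers 5 were higher, all 5 at an unadjusted p of at most 0.05, where 2.39% of all named genes were. Endothelial markers were higher in 6 of 6, 2 at that p, with a mean of 8.25 to 8.53 against 8.11 to 8.31. Fibroblast markers were higher in 5 of 6, 1 at that p, with a mean of 8.54 to 8.98 against 8.39 to 8.58. The part of these cell types in the Itga5 and Itgb1 differences was not tested.

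Itgb1 (probe set 10576661), the beta1 chain that pairs with most alpha chains listed here, read 11.01, 11.01, 10.96 and 11.08 in nonirradiated tumors 1 to 4. In preirradiated tumors 1 to 4 it read 11.17, 11.14, 11.12 and 11.08. The groups were parted by 0.0045 log2 units, between nonirradiated and preirradiated tumors 4. The difference was small, 0.11 (SE 0.039) or 1.08-fold (limma, adjusted p = 0.809). Its unadjusted p missed 0.05 in 6 of 19 alternative settings, among them median centring (0.081). The difference was 0.10 in 4 of them, those with nonirradiated tumor 3, preirradiated tumor 1 or both preirradiated tumors 1 and 3 left out and that with the muscle covariate.

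Of the other RGD-binding chains, Itgb6 was higher and the rest did not pass an unadjusted p of 0.05. Itgb6 (probe set 10483000), the epithelial beta6 chain that with alphav releases active TGF-beta, read 4.71, 4.73, 4.68 and 4.77 in nonirradiated and 5.02, 4.87, 4.90 and 4.77 in preirradiated tumors 1 to 4. Its signal was close to the study's limit of 4.0 in every tumor, from 4.68 to 5.02. Preirradiated tumor 1 was highest, and preirradiated tumor 4 lay only 0.0027 above nonirradiated tumor 4. The difference was 0.17 (SE 0.055, limma, adjusted p = 0.789). Its unadjusted p missed 0.05 without preirradiated tumors 1 and 3 (0.10) and with the muscle covariate (0.11).

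The alphav chain Itgav, which serves 5 of the beta chains listed, was 10.25 ± 0.19 against 10.20 ± 0.15, a difference of 0.050 (SE 0.11). Of its partners of vitronectin binding, Itgb3 differed by 0.10 (SE 0.060) and Itgb5 by -0.031 (SE 0.068). The Itgb3 difference ran from 0.027 to 0.13 in the 19 alternative settings, and its unadjusted p missed 0.05 in all of them. Itgb5, which with alphav makes the integrin named beside CYR61 in the cited title, ran from 11.32 to 11.52 in nonirradiated and from 11.30 to 11.53 in preirradiated tumors. Cyr61 itself, named after its value was seen, differed by 0.013 (SE 0.14). Itgb8, a further TGF-beta-releasing beta chain, differed by -0.028, and Itga2b, the platelet alphaIIb chain, by -0.0082. Within an array, Itga5 minus Itgav ran from -0.75 to -0.55 in nonirradiated and from -0.45 to -0.30 in preirradiated tumors, a gap chosen after its values had been seen.

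Itga8, an RGD-binding chain of smooth muscle and other mesenchyme, varied most between tumors of 1 group. It read 7.31 in nonirradiated tumor 1 and between 5.56 and 5.97 in the other 3 nonirradiated tumors, and 5.46, 6.40, 5.76 and 5.63 in preirradiated tumors 1 to 4. The difference of -0.33 (SE 0.38) did not exceed this spread, and without nonirradiated tumor 1 it was 0.053. The smooth muscle and pericyte marker mean of nonirradiated tumor 1 was 7.59, against 7.50 to 7.53 in the other nonirradiated tumors. In preirradiated tumors it was higher, at 7.61 to 7.98. Its highest value was in preirradiated tumor 1, whose Itga8 was the lowest of all tumors. The part of these cells in the Itga8 values was not tested.

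**Figure D2:**
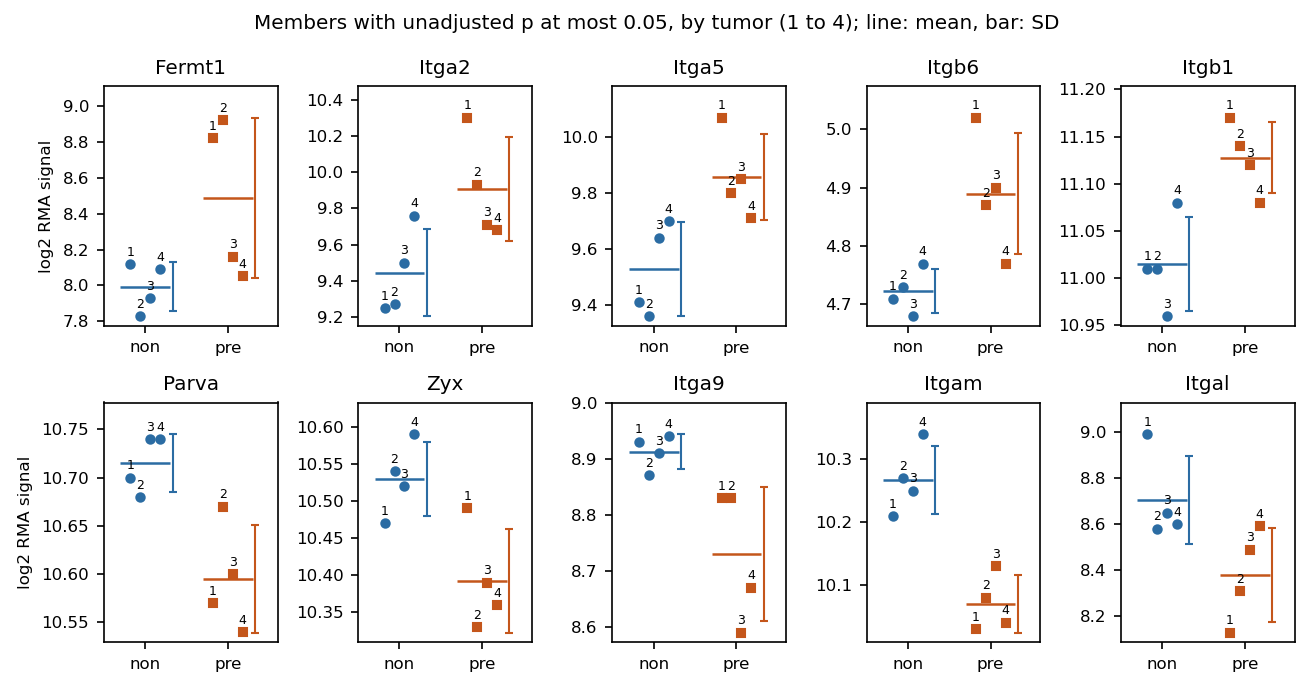
The panels give the log2 RMA signal of the 10 members with an unadjusted limma p of at most 0.05 in each tumor, numbered 1 to 4, for nonirradiated (blue circles) and preirradiated (orange squares) tumors. Lines are group means and bars are SD. Itgam, Itga9 and Parva lie lower in all 4 preirradiated tumors, and Itga5, Itgb1 and Itgb6 higher.

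The laminin receptor chains did not differ between the groups beyond their spread. Itga3, the alpha3 chain of epithelial laminin receptors, was 11.81 ± 0.011 against 11.80 ± 0.024, a difference of 0.013 (SE 0.031). Itgb4, the beta4 chain of hemidesmosomes, differed by 0.030 (SE 0.044), and its partner Itga6 by -0.037 (SE 0.072). The signs of Itga3 and Itgb4 turned after median centring of the arrays.

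Itga7, the laminin receptor chain of muscle, had the widest spread of this class. It read 7.24, 7.16, 7.35 and 7.07 in nonirradiated tumors and 7.56, 6.64, 7.69 and 7.19 in preirradiated tumors 1 to 4. Preirradiated tumors 1 and 3 were the highest of all tumors and tumor 2 the lowest, and the mean difference was 0.065 (SE 0.21). Preirradiated tumors 1 and 3 also had the highest mean of 10 skeletal muscle markers, at 9.46 and 10.77, against 6.21 to 6.53 in nonirradiated tumors and 6.26 and 6.44 in preirradiated tumors 2 and 4. All 10 muscle markers were higher on average in preirradiated tumors, and 0 of them had an unadjusted limma p of at most 0.05. Without preirradiated tumors 1 and 3 the Itga7 difference was -0.29, and with the marker mean as a covariate it was also -0.29. The part of muscle RNA in the Itga7 values was not tested further.

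**Figure D3:**
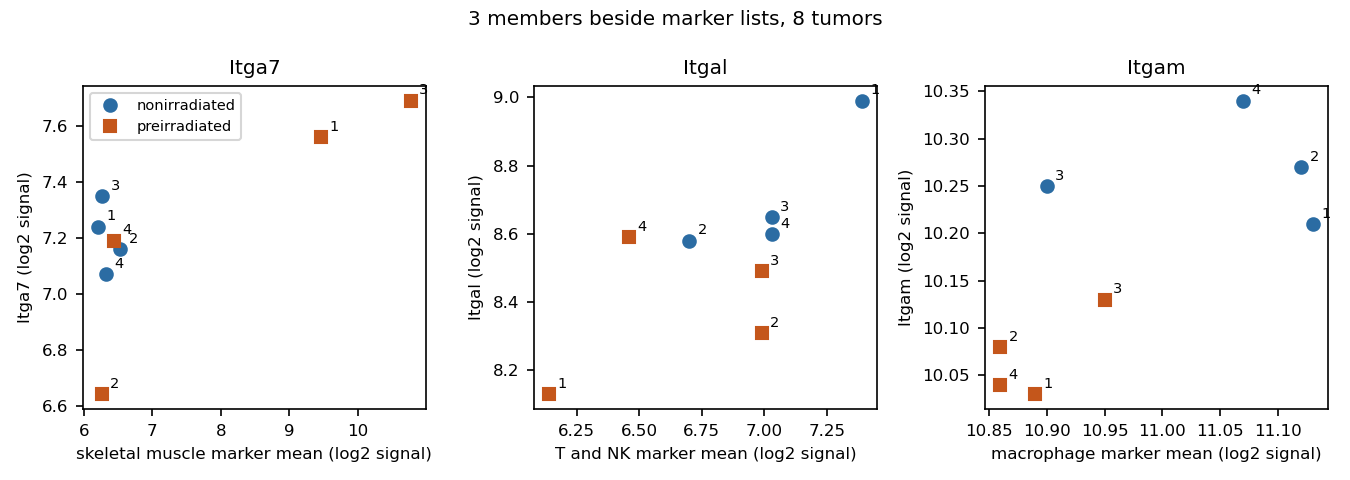
Each point is a tumor, numbered within its group. The log2 signals of Itga7, Itgal and Itgam are set against the mean log2 signal of skeletal muscle, T and NK cell and macrophage markers. Preirradiated tumors 1 and 3 stand apart to the right in the Itga7 panel, and in the Itgam panel all preirradiated tumors lie below all nonirradiated ones.

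Of the 7 leukocyte integrin chains, Itgal and Itgam were lower at an unadjusted p of at most 0.05 (3.27% of all named genes were) and the other 5 did not pass it. The difference was negative in 6 of 7, as it was in 10481 of 19937 named genes, and the median of the class was -0.152. The median was -0.066 with preirradiated tumor 1 left out, -0.071 with nonirradiated tumor 1 left out and -0.06 without preirradiated tumors 1 and 3. Fewer leukocytes in a tumor and less RNA per leukocyte cannot be told apart in bulk RNA.

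Itgam (probe set 10557862), the alphaM chain of monocytes, macrophages, neutrophils and NK cells, had the smallest p of all members. It read 10.21, 10.27, 10.25 and 10.34 in nonirradiated tumors 1 to 4 and 10.03, 10.08, 10.13 and 10.04 in preirradiated tumors 1 to 4. Every preirradiated tumor lay below every nonirradiated tumor, by at least 0.082. The difference was -0.20 (SE 0.041), or 1.15-fold lower (limma, adjusted p = 0.62). Its unadjusted p stayed at most 0.05 in all 19 alternative settings, with differences from -0.23 to -0.18 and adjusted p from 0.438 to 1.0. The mean of 7 macrophage markers was lower as well, at 10.86 to 10.95 in preirradiated and 10.90 to 11.13 in nonirradiated tumors (difference -0.16). Of these 7 genes all were lower, 3 at an unadjusted p of at most 0.05 (3.27% of all named genes were). The mean of 6 neutrophil markers differed by -0.15, with 6.80 to 7.40 in preirradiated and 6.96 to 7.73 in nonirradiated tumors. Of these 6 genes 5 were lower, 1 at that p. The mean of 8 T and NK cell markers differed by -0.39, with 6.14 to 6.99 in preirradiated and 6.70 to 7.39 in nonirradiated tumors. All 8 were lower, 1 at that p. The part of these cell types in the Itgam difference was not tested.

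Itgal (probe set 10557591), the alphaL chain of lymphocytes, read 8.99, 8.58, 8.65 and 8.60 in nonirradiated tumors and 8.13, 8.31, 8.49 and 8.59 in preirradiated tumors 1 to 4. In 3 of 4 preirradiated tumors it was below all nonirradiated tumors, and preirradiated tumor 4 lay within their range. The difference was -0.33 (SE 0.12), or 1.25-fold lower (limma, adjusted p = 0.822). Its p missed 0.05 when any 1 of 3 tumors was left out: nonirradiated 1 (-0.23), preirradiated 1 (-0.24) or preirradiated 2 (-0.30). It also missed without both preirradiated tumors 1 and 3, with the muscle covariate and in the ordinary linear model. The mean of 8 T and NK cell markers was highest in nonirradiated tumor 1, at 7.39, and lowest in preirradiated tumor 1, at 6.14, the same tumors that bounded Itgal. It was 6.46 in preirradiated tumor 4, whose Itgal was within the nonirradiated range. Of these 8 markers all were lower on average, 1 at an unadjusted p of at most 0.05 (3.27% of all named genes were). Their lowest, Ncr1, had a mean of 4.99. Their part in the Itgal difference was not tested.

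The shared leukocyte chain Itgb2, the beta2 partner of alphaL, alphaM, alphaX and alphaD, differed by -0.16 (SE 0.079), with preirradiated tumor 1 lowest at 10.44. Itgax, the alphaX chain of dendritic cells and macrophages, lies next to Itgam in the genome and differed by -0.048 (SE 0.074). Itgad, the next gene again, differed by -0.034 (SE 0.037). Itgb7, a chain of gut-homing lymphocytes, differed by -0.15 (SE 0.13), and Itgae, which pairs with beta7 to bind E-cadherin, by 0.019 (SE 0.068).

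Of the alpha4 and alpha9 chains, which bind VCAM-1 and other matrix and cell surface ligands, Itga9 was lower and Itga4 did not pass an unadjusted p of 0.05. Itga9 (probe set 10590031) read 8.93, 8.87, 8.91 and 8.94 in nonirradiated tumors and 8.83, 8.83, 8.59 and 8.67 in preirradiated tumors 1 to 4, with no overlap. The difference was -0.19 (SE 0.061), or 1.14-fold lower (limma, adjusted p = 0.789), and its p missed 0.05 in 1 of 19 settings, the muscle covariate (-0.14). Itga4, the alpha4 chain of lymphocytes and monocytes, read 9.25, 8.96, 8.75 and 8.96 in nonirradiated tumors and 8.60, 8.88, 8.80 and 8.79 in preirradiated tumors 1 to 4. Nonirradiated tumor 3 lay below 3 preirradiated tumors, and the difference of -0.21 (SE 0.11) was within the spread between tumors.

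**Figure D4:**
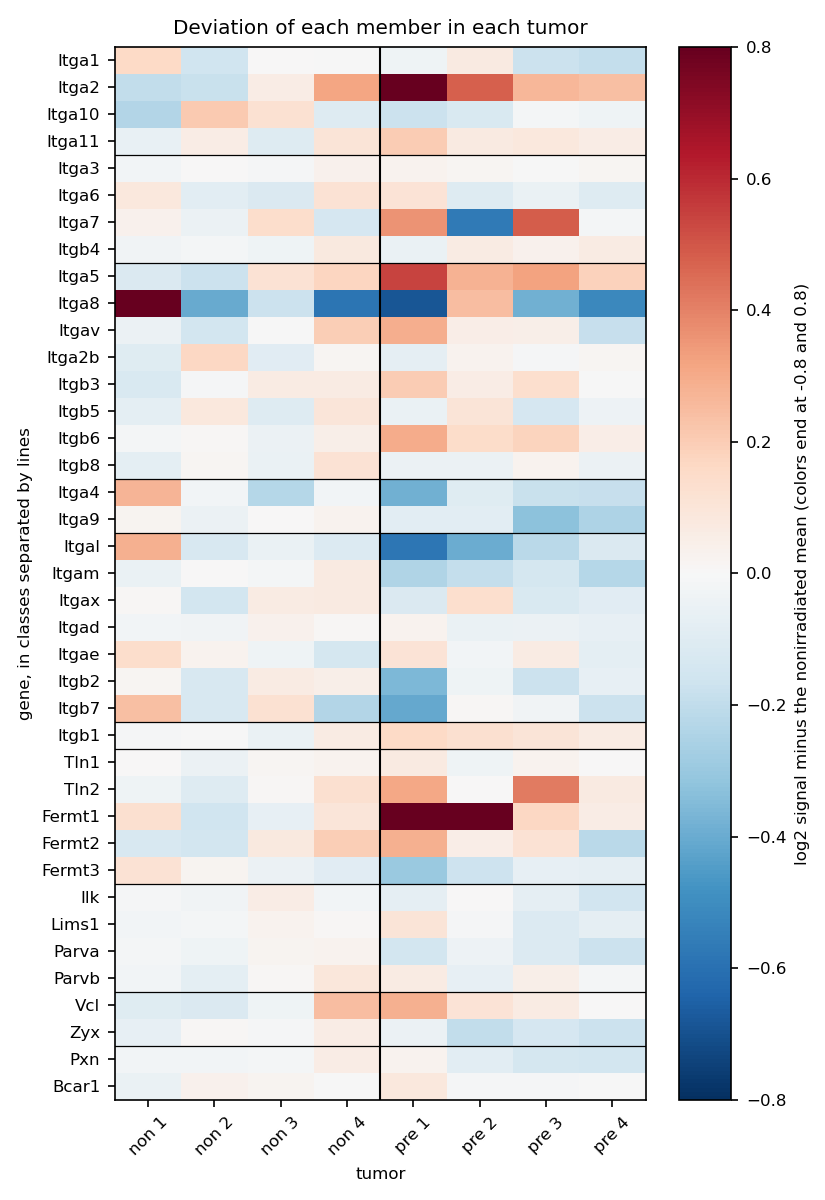
Rows are the 39 members in classes separated by lines, columns are tumors 1 to 4 of each group, and color is the log2 signal minus the nonirradiated mean of the gene. Fermt1 is darkest red in preirradiated tumors 1 and 2 and Itga2 in tumor 1, Itgal is blue in preirradiated tumors 1 and 2, and Itga8 is dark red in nonirradiated tumor 1 alone.

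Among the genes that activate integrins from inside the cell, the epithelial kindlin Fermt1 was higher, and the other 4 did not reach an unadjusted p of 0.05. Fermt1 (probe set 10487994) read 8.12, 7.83, 7.93 and 8.09 in nonirradiated tumors and 8.82, 8.92, 8.16 and 8.05 in preirradiated tumors 1 to 4. Preirradiated tumors 1 and 2 were well above all others, and tumors 3 and 4 were within 0.1 log2 units of the highest nonirradiated tumor. The difference was 0.49 (SE 0.20) or 1.41-fold (limma, adjusted p = 0.84). Its p passed 0.05 in 9 of 19 alternative settings, and the difference was 0.38 with preirradiated tumor 1 left out and 0.35 with tumor 2 left out. Without nonirradiated tumor 1, 2, 3 or 4 it was 0.54, 0.44, 0.47 or 0.53, and its p also missed 0.05. The same held with median centring (0.46), the muscle covariate (0.56), the ordinary linear model, and without both preirradiated tumors 1 and 3 (0.49). The mean of 7 epithelial markers ran from 8.66 to 8.94 in preirradiated and from 8.36 to 8.93 in nonirradiated tumors. It was highest in preirradiated tumor 2 (8.94) and nonirradiated tumor 4 (8.93), whose Fermt1 read 8.92 and 8.09. Preirradiated tumor 1, with Fermt1 at 8.82, had an epithelial mean of 8.69. The part of epithelial content in the Fermt1 values was not tested.

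Fermt2, the kindlin of most adherent cells, differed by 0.058 (SE 0.12), and Fermt3, the kindlin of blood cells, by -0.15 (SE 0.067, limma, adjusted p = 0.851). Tln1, the common talin, was level at 10.76 ± 0.045 against 10.74 ± 0.034. Tln2, a talin of heart, brain and muscle, differed by 0.20 (SE 0.097), with its highest values in preirradiated tumors 1 (7.41) and 3 (7.51), the tumors high in skeletal muscle markers.

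In the complex of integrin-linked kinase, PINCH and parvin, Parva was lower and the median of the 4 genes was -0.048. Parva (probe set 10556426), the alpha-parvin actin-binding subunit, read 10.70, 10.68, 10.74 and 10.74 in nonirradiated tumors and 10.57, 10.67, 10.60 and 10.54 in preirradiated tumors 1 to 4. The groups did not overlap but were only 0.010 apart, and the difference was -0.12 (SE 0.040), or 1.09-fold lower (limma, adjusted p = 0.809). Its unadjusted p missed 0.05 without preirradiated tumors 1 and 3 and with the muscle covariate, where the difference was -0.11 in both. Ilk, the pseudokinase at the centre of the complex, differed by -0.073 (SE 0.043), Lims1, which encodes PINCH-1, by -0.023 (SE 0.051), and Parvb, beta-parvin, by 0.0089 (SE 0.050).

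Of the genes at the actin end of the adhesion, Zyx was lower and Vcl was not. Zyx (probe set 10537770), the zyxin that marks mature, tension-bearing adhesions, read 10.47, 10.54, 10.52 and 10.59 in nonirradiated tumors and 10.49, 10.33, 10.39 and 10.36 in preirradiated tumors 1 to 4. Preirradiated tumor 1 lay above nonirradiated tumor 1, and the other preirradiated tumors lay below all nonirradiated ones. The difference was -0.14 (SE 0.046), or 1.10-fold lower (limma, adjusted p = 0.809), and -0.11 after a further quantile normalization, where its p missed 0.05. Vcl, vinculin, differed by 0.12 (SE 0.092), with nonirradiated tumor 4 (9.97) and preirradiated tumor 1 (10.01) highest. The scaffold genes Pxn, for paxillin, and Bcar1, for p130Cas, differed by -0.086 (SE 0.049) and 0.015 (SE 0.039). Pxn read 10.78, 10.78, 10.79 and 10.86 in nonirradiated tumors and 10.83, 10.72, 10.66 and 10.65 in preirradiated tumors 1 to 4. In 3 of 4 preirradiated tumors Pxn was below all nonirradiated tumors.

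Members were also set beside 2 lists of the same pathway that hold none of them, the further adhesion proteins and the integrin ligands. Of 43 adhesion proteins 40 were measured, with a median difference of 0.0 and 30 of 40 within 0.1 of 0. In this list 1 gene was higher and 1 lower at an unadjusted limma p of at most 0.05, which is 5.0% of the list, near the 5.66% of all named genes. Tgfb1i1, the paxillin relative Hic-5, was 7.69 ± 0.16 against 7.42 ± 0.12, and Apbb1ip, the talin recruiter RIAM of blood cells, differed by -0.15 (SE 0.063). The counts were not stable: 0 were higher with nonirradiated tumor 3 or preirradiated tumor 1 left out, and 3 with preirradiated tumor 4 left out. None was lower without nonirradiated tumor 2 or 4, and 2 were without preirradiated tumor 3 or 4.

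Of 32 ligands 30 were measured, and 9 were higher and 3 lower at an unadjusted p of at most 0.05, where 2.39% and 3.27% of all named genes were. The study's filter was passed by 6, all higher, and by 0.346% of named genes as higher. The median difference of the ligands was 0.038. Collagen, tenascin and laminin genes were already known to be higher in these tumors when the list was written, so its count is no independent evidence. Lamb3, the beta3 chain of the epithelial laminin-332, had the highest difference, reading 7.17, 7.17, 7.52 and 7.85 in nonirradiated and 9.06, 8.27, 7.89 and 8.68 in preirradiated tumors 1 to 4. That was 1.04 (SE 0.26) or 2.06-fold, with no overlap (limma, adjusted p = 0.674). Lama3, the alpha3 chain of the same laminin, was 6.47 ± 0.24 against 6.04 ± 0.14. The receptor chains for this laminin, Itga3, Itga6 and Itgb4, differed by at most 0.037 in size, as given above.

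The collagens Col1a1, Col1a2 and Col3a1 differed by 0.49, 0.54 and 0.61, and Tnc, a ligand of alpha9, by 0.63. Postn, the matricellular protein periostin that binds alphav integrins, was 11.34 ± 0.21 against 11.02 ± 0.082. For the ligand Fn1, fibronectin, named here after its value was seen, the difference was 0.018 (SE 0.047), from 13.03 to 13.18 in nonirradiated and 13.03 to 13.14 in preirradiated tumors. Of the cell surface counter-receptors in the list, Vcam1 and Icam1 were lower at an unadjusted p of at most 0.05. Icam2 (-0.040), Madcam1 (-0.050) and Cdh1, the E-cadherin bound by the Itgae product (0.29, SE 0.14), did not pass and were named after their values were seen. Vcam1, bound by alpha4 and alpha9 chains, read 10.62, 10.58, 10.52 and 10.79 in nonirradiated and 10.25, 10.36, 10.38 and 10.37 in preirradiated tumors 1 to 4, a difference of -0.29 (SE 0.064, limma, adjusted p = 0.62). No preirradiated tumor reached the nonirradiated range. Icam1, bound by alphaL and alphaM and also named after its value was seen, differed by -0.19 (SE 0.072). Ltbp1, Lama1 and Lama4 complete the 12 ligands at that p, with differences of -0.10, 0.15 and 0.18, and were likewise named after their values. Only 1 ligand was lower at that p with nonirradiated tumor 4 or preirradiated tumor 2 left out.

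**Figure D5:**
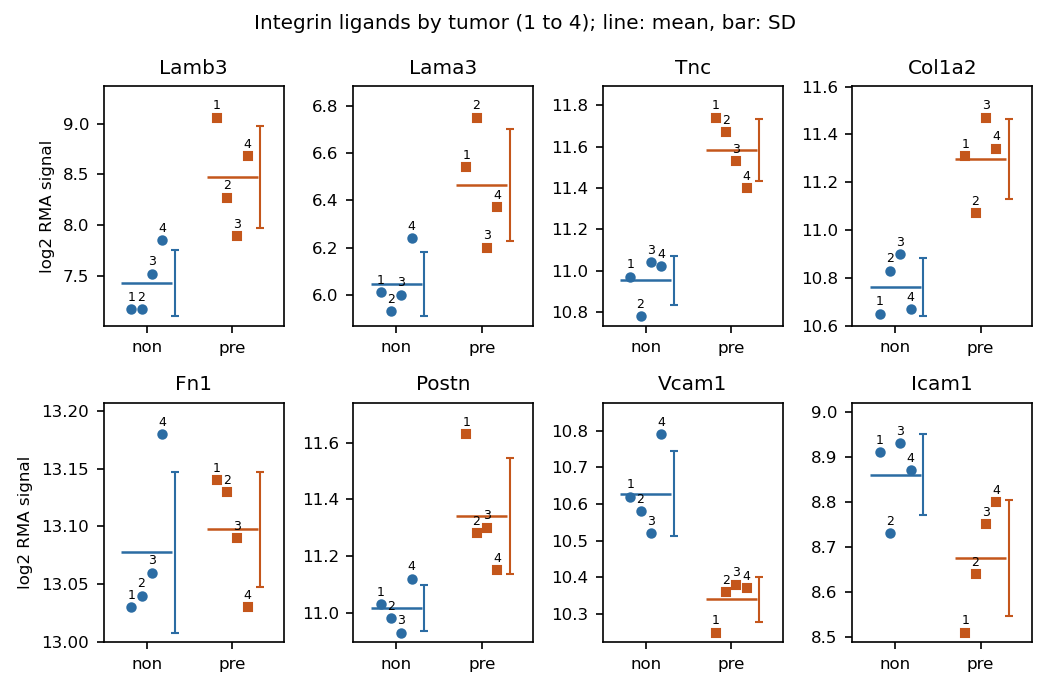
The panels give the log2 RMA signal of 8 integrin ligands in each tumor, numbered 1 to 4, for nonirradiated (blue circles) and preirradiated (orange squares) tumors, with group means and SD. Lamb3, Tnc, Col1a2 and Postn lie higher in all 4 preirradiated tumors and Vcam1 lower, while Fn1 overlaps.

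Chains that form a dimer with a partner other than beta1 were correlated with that partner across the 8 tumors, in 12 pairs. No pair passed after Benjamini-Hochberg adjustment over the 12 (smallest adjusted p = 0.192 for Pearson's r and 0.23 for Spearman's rho, exact two-sided permutation over pairings). The highest r was 0.72, for Itgax with Itgb2 (rho = 0.74, exact permutation p = 0.0356 and 0.0458), and it was 0.85 without the 2 tumors farthest in Itgax and 0.74 within groups. Itgav with Itgb3 gave r = 0.71 (rho = 0.71, exact permutation p = 0.0467 and 0.0576), 0.50 without the 2 farthest tumors and 0.75 within groups. For Itgal with Itgb2, r was 0.70 (rho = 0.79, exact permutation p = 0.0632 and 0.0279) and 0.30 without nonirradiated and preirradiated tumors 1, on which it rested. Itga6 with Itgb4 gave r = -0.18 (rho = 0.05, exact permutation p = 0.7 and 0.935).

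Tumors contributed unequally to the extremes. Preirradiated tumor 1 was the highest of the 8 tumors for 12 of 39 members and the lowest for 8. Nonirradiated tumor 4 was highest for 10 members, and preirradiated tumor 4 was lowest for 7 and highest for 0. Nonirradiated tumors 1 and 2 were also lowest for 7 members each. Such extremes were not counted over all named genes. A marker mean of 5 adipocyte genes was also highest in preirradiated tumor 1, at 7.63, against 6.04 to 6.43 in all other tumors, and its part in that tumor's extremes was not tested.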

How the data were processed

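RNA of 8 tumors was hybridized, 1 array each. The deposited values are log2 RMA signals per probe set that the authors made with affy of Bioconductor 2.4, per the labels' protocols and design text (R 2.15.3 per the submitters' processing notes). The sources used here name no chip description file. Of 34760 probe sets, 34738 had a mean of at least 4.0. The platform annotation gave 21640 probe sets 1 symbol, 1321 several and 11799 none; 19937 genes were named.

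Groups came from the sample titles. Preirradiated minus nonirradiated was fitted over all 34738 probe sets with limma 3.58.1 in R 4.3.3 (lmFit, eBayes, two-sided, Benjamini-Hochberg). Only 4 arrays per group limit the precision. The fit was also run on simulated data with known changes, in which noise was independent between probe sets and between arrays. Shifts shared by many genes of a tumor, such as those of muscle markers, were not simulated, so that run cannot speak to them. Marker means leave out genes of the other lists. The members, lists and tests were chosen with earlier results of these data known. Genes were named by rule: all members, with tumor values for those at an unadjusted p of at most 0.05, without overlap or with the largest change of their class, and up to 8 genes per further list at that p. The sample numbers of the titles were not taken to pair the tumors. The 19 alternatives covered the expression limit, variance model, normalization, array weights, replicate block, probe set choice, left-out tumors and a muscle covariate.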

Additional observations from a re-analysis of the deposited data

Results flagged for a closer look

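In 6 of 78 groups of 4 tumors (39 members in 2 groups), 1 tumor lay far from the other 3, by Dixon's ratio of gap to range above its critical value for 4 samples. About 1 in 20 groups does so by chance. Preirradiated tumor 1 was high in Itga11, at 5.69 against 5.55 to 5.58 in the other 3, and in Bcar1, at 9.22 against 9.12 to 9.13. Nonirradiated tumor 4 was high in Itgb4, at 11.12 against 11.01 to 11.02, and in Pxn, at 10.86 against 10.78 to 10.79. Itgax was high in preirradiated tumor 2, at 9.10 against 8.85 to 8.88, and Itgb8 in preirradiated tumor 3, at 5.23 against 5.15. All 6 were on the high side, and none belongs to the 10 members with an unadjusted p of at most 0.05.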

How the results depend on the processing

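In 736 recomputed member differences, 47 turned sign, all in 16 members that had no unadjusted p of at most 0.05, and 0 in the 10 that had. With median centring, Itga3 (-0.021), Itgb4 (-0.0043), Itgae (-0.015), Tln1 (-0.016), Parvb (-0.025) and Bcar1 (-0.019) turned. Without both preirradiated tumors 1 and 3, Itga7 (-0.29), Itgav (-0.068), Itga2b (0.022), Itgb5 (0.032), Itgax (0.022), Itgae (-0.050), Tln1 (-0.015), Fermt2 (-0.084), Parvb (-0.040) and Bcar1 (-0.0071) turned, as did the correlations of Itgad with Itgb2 (0.72), Itga6 with Itgb4 (0.10) and Itga2b with Itgb3 (0.19). With the muscle covariate, Itga7 (-0.29), Itgav (-0.035), Itga2b (0.0095), Itgb5 (0.033), Itgax (0.026), Itgae (-0.041), Tln1 (-0.0080), Fermt2 (-0.056) and Parvb (-0.035) turned. Itga2b turned with array weights (0.00047) and Itgae with quantile normalization (-0.0064).

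The members past the study's filter numbered 1 with median centring, the replicate block or the ordinary linear model, and 0 without preirradiated tumors 1 and 3 or with the muscle covariate. Members higher at an unadjusted p of at most 0.05 numbered 3 with median centring or the replicate block, and 0 without those tumors or with the covariate. Members lower numbered 9 with median centring, 2 with the replicate block, 3 without those tumors and 2 with the covariate. Shares of all named genes were not counted in these settings. Adhesion proteins lower numbered 0 with a mean limit of 6 or quantile normalization, 4 with median centring, 2 with the replicate block or the mean of all probe sets, and 3 without those tumors or with the covariate. Adhesion proteins higher numbered 3 with quantile normalization or array weights, 0 without those tumors or with the covariate and 2 with the ordinary linear model. Ligands lower numbered 1 without those tumors. The collagen class median was -0.081 with a mean limit of 6, which dropped Itga11, and the leukocyte class median -0.06 without those tumors and -0.068 with the covariate. With the replicate block, Itga2 (0.46), Itgal (-0.33), Itgb1 (0.11), Parva (-0.12) and Zyx (-0.14) missed an unadjusted p of 0.05. Fewer tumors or a further term leave less power, and some differences were also smaller in these settings, as given above. The cause of the changed counts was not tested.

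Leaving out single tumors turned the sign of 13 members, whose differences ran from -0.087 to 0.0016 for Itga6, -0.074 to 0.28 for Itga7, -0.53 to 0.053 for Itga8, -0.03 to 0.13 for Itgav, -0.04 to 0.047 for Itga2b, -0.075 to 0.0032 for Itgb5, -0.054 to 0.011 for Itgb8, -0.027 to 0.066 for Itgae, -0.00097 to 0.035 for Tln1, -0.018 to 0.15 for Fermt2, -0.064 to 0.0067 for Lims1, -0.018 to 0.04 for Parvb, -0.0088 to 0.025 for Bcar1. It gave 0 to 2 members past the study's filter, 3 to 7 higher and 4 to 6 lower, 0 to 3 adhesion proteins higher and 0 to 2 lower, and 1 to 3 ligands lower. The leukocyte class median then ran from -0.199 to -0.066. Same-numbered tumors did not deviate together: correlations ran from -0.289 to -0.0752, and 0 of 4 numbers matched best with their own, so the numbers are not taken to pair the tumors. Adjusted p of members was at least 0.438 in all 19 settings. Without detection calls, how close Itgb6, Itgb8 and Itga11 lie to background is unknown.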
